A study of Mus musculus with 6 samples.

Results

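Of the 55681 probes on the array other than controls, 16194 carried a genome position in place of a transcript accession. Each of these positions gave a chromosome, a start and an end, and all but a few gave a strand, written F for forward or R for reverse. The array design is annotated on the mm9 build of the mouse genome, and every position given here is that of the design on mm9. The 16194 probes fell in 3543 intervals, 1067 of which had probes to both strands. Members were selected on signal: a position-named probe was kept if the scanner software marked its spots as well above background on 3 or more arrays out of 6, counted without regard to genotype. This left 6709 probes (41.4%) in 2408 intervals, counted as 2953 regions when the strands of an interval were taken apart. The other 9485 position-named probes fell short of the rule and were not tested. Among accession-named probes, 26059 of 39487 (66.0%) met the same rule.

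RNA came from the whole uterus of female mice, 3 samples from Sox17 f/f and 3 from Sox17 ed/ed females, with 1 sample on each array. In Sox17 f/f mice both Sox17 alleles are floxed and no recombinase is present, and Sox17 ed/ed mice add Ltf iCre/+ to the same alleles. The iCre is expressed from the Ltf locus in the uterine epithelium from puberty on, so stroma, muscle and vessels keep Sox17. Females were mated to fertile males at 8 to 10 weeks of age, and uteri were taken without embryos at gestation day (GD) 3.5, shortly before implantation. SOX17 is a transcription factor of the SRY-box family. The labels do not tie the 3 samples of a genotype to separate animals in so many words, so p-values here measure the spread between these samples, which may be technical.

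Long noncoding RNAs are transcribed and processed much like messenger RNAs but are not translated into protein. They are often found first as stretches of chromatin that carry the marks of transcription outside known genes, which is why array designs give them a position and not a name. Many act where they are made, on genes next to them on the chromosome, while others shape nuclear bodies or host the small RNAs cut from their introns. The files do not say that a position-named probe measures a noncoding RNA, nor which gene lies beside it. No gene annotation on mm9 was used here, so overlap with coding genes was not tested and neighbouring genes are not named.

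The share of position-named probes well above background was 43.0%, 44.0% and 50.2% on the Sox17 f/f arrays and 39.5%, 36.7% and 40.8% on the Sox17 ed/ed arrays. Sox17 f/f replicate 3 thus stood above the other arrays, and all Sox17 ed/ed arrays stood below all Sox17 f/f arrays. Sox17 f/f replicate 3 also differed by at least 1 on the log2 scale from both other arrays of its genotype at 1.82% of the members measured on all arrays, against 0.345% to 0.842% for the other arrays. The 6 arrays lay on 1 slide scanned once, Sox17 f/f arrays in one line and Sox17 ed/ed arrays in the other, so slide position and genotype cannot be told apart. Both Sox17 probes were lower in Sox17 ed/ed uteri, with log2 fold changes of -2.97 (SE 0.10, limma adjusted p = 6.16e-05) and -2.45 (SE 0.09, limma adjusted p = 9.62e-05). Of the 5 markers of uterine epithelium tested, 3 rose (Cdh1, Krt8 and Krt19), and their summed signal ran from 34750.3 to 37013 on Sox17 f/f arrays and from 43517 to 53963 on Sox17 ed/ed arrays. None of the 7 markers of endometrial stroma (summed signal 164461 to 166921 against 133336 to 147674) and none of the 4 of smooth muscle (232029.8 to 252372 against 174865 to 202839.6) passed the thresholds used below. Nor did any of the 3 tested leukocyte, 2 erythrocyte and 2 adipocyte markers, or Inha, the 1 of 4 ovary markers that met the filter. Ovgp1 of the oviduct fell, with a log2 fold change of -2.92, as did 1 of the 2 tested markers of exocrine pancreas. The part of these shifts in the results below was not tested. In RNA from a whole organ, fewer cells of a type and less RNA per cell cannot be told apart.

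Fewer of the position-named probes than of all probes passed the thresholds of the study's methods, an unadjusted p under 0.01 with a fold change of at least 1.4 in either direction. Of the 6709 members, 454 (6.77%) passed, against 9.88% of all 32768 probes tested, and these are the probes called below. In Sox17 ed/ed uteri 199 members were higher (2.97%, against 4.56% of all probes) and 255 lower (3.80%, against 5.32%). Over all probes tested, 440 members had a limma adjusted p under 0.05, 200 higher and 240 lower, or 6.56% against a background of 10.6%, and 366 members met both criteria. The genotypes did not overlap at 1725 members in all (25.7%, against 34.6% of all probes). They overlapped at none of the 454 called members, and at none of the 3236 called probes of the whole array. Lack of overlap therefore adds nothing to a call. The median log2 fold change was -0.01 over the members and -0.01 over all probes tested. Called members changed by a median of 0.79 upward and -0.91 downward on the log2 scale, and 173 of them changed at least 2-fold (2.58%, against 4.32% of all probes).

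Many position-named probes gave low signal, and 47.9% of the members lay in the dimmest quartile of all tested probes by mean signal over the 6 arrays. In that quartile 7.10% of the members and 14.3% of the accession-named probes were called. The shares were 6.64% and 12.2% in the second quartile, 6.52% and 10.7% in the third and 5.06% and 7.19% in the brightest, where 12 of 316 members were higher and 4 lower. The share of members called was thus the smaller one in each quartile of signal.

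**Figure D1:**
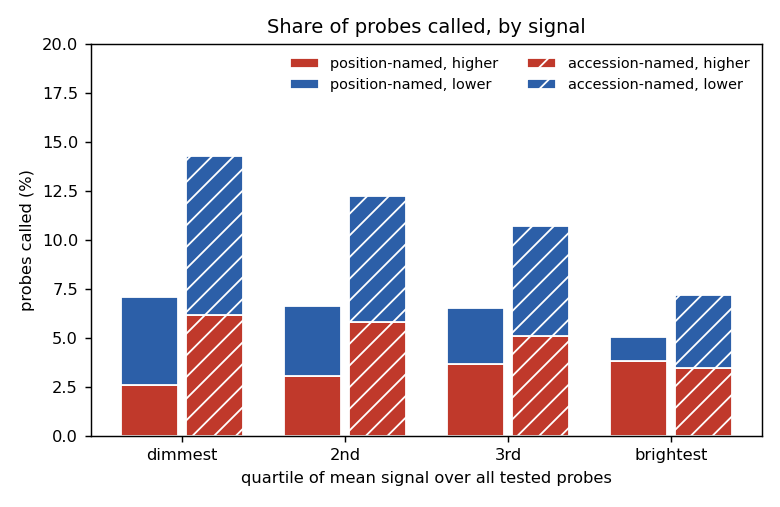
Share of probes called higher (red) or lower (blue) in Sox17 ed/ed uteri, in percent of the probes in each quartile of mean signal, for position-named (plain bars) and accession-named probes (hatched bars). Position-named bars run from 7.10% in the dimmest quartile to 5.06% in the brightest, below the hatched bar beside them in every quartile.

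The filter itself can make a probe differ: a member that was above background on the 3 arrays of one genotype alone met the rule through that genotype. All 3 Sox17 f/f arrays but none of the Sox17 ed/ed arrays measured 222 members well above background (3.31%, against 2.0% of all probes tested), and 70 of them were called. Among accession-named probes the same held for 433, of which 196 were called. The opposite held for 23 members (0.343%, against 0.360%), and all 23 were called. So were 90 of the 95 accession-named probes of that kind, so these calls are not particular to the members. Among the 5260 members above background on all 6 arrays, 305 were called (5.80%, against 8.97% of all such probes), 153 higher and 152 lower. Members just inside the rule, with exactly 3 arrays above background, numbered 522 and had a median signal of 4.12 on the log2 scale. Just outside it, with exactly 2 arrays, were 778 probes with a median of 3.73.

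**Figure D2:**
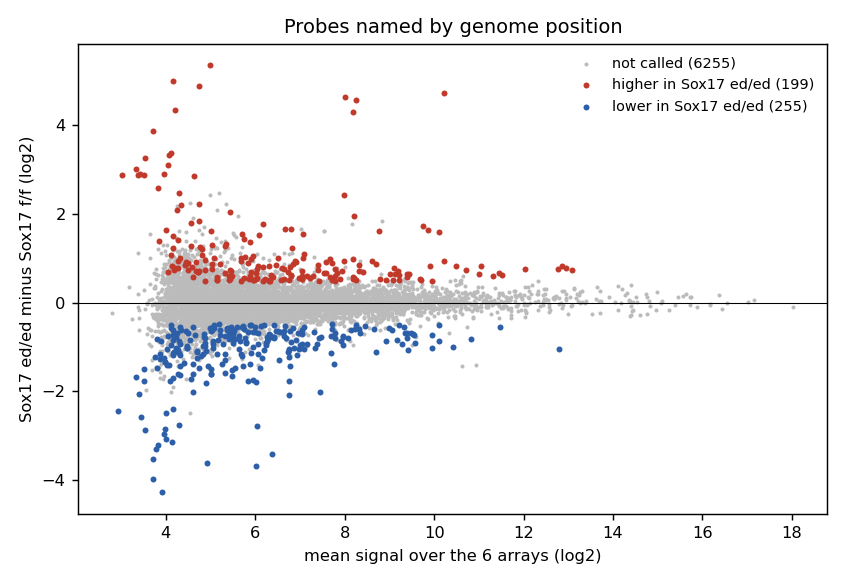
Log2 fold change of each of the 6709 members (Sox17 ed/ed minus Sox17 f/f) against its mean log2 signal over the 6 arrays. The 199 red and 255 blue points are the members called higher and lower, and the changes of at least 4-fold lie mostly at low mean signal.

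The largest rise among members above background on all 6 arrays was in a forward region of chromosome 3, chr3:87757295-87774970. One of its 5 probes had log2 signals of 8.11, 7.70 and 7.77 on the Sox17 f/f arrays and 12.78, 12.43 and 12.55 on the Sox17 ed/ed arrays. The Sox17 ed/ed arrays were all brighter, by a log2 fold change of 4.73 (SE 0.15, limma adjusted p = 5.20e-05). A second probe gave 5.82, 6.08 and 5.99 against 10.65, 10.38 and 10.58, with a log2 fold change of 4.57. The remaining pair of probes that rose gave 4.64 and 4.28. The fifth probe did not move with them: its signals were 12.88, 12.83 and 12.81 in Sox17 f/f and 12.93, 12.81 and 12.72 in Sox17 ed/ed uteri, and the groups overlapped (log2 fold change -0.02, 95% interval from -0.22 to 0.18). The probes of this interval therefore fell into 4 that rose strongly and 1 that did not pass the thresholds.

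The next rises were smaller. On the reverse strand of chr9:20784567-20799942, 1 of 3 probes rose from 6.70, 6.61 and 7.01 to 9.58, 9.07 and 8.98, a log2 fold change of 2.43 (SE 0.19, limma adjusted p = 0.00121), whereas the other two gave 0.80 and -0.34 and did not pass. Neighbouring forward regions of chromosome 2, chr2:36112429-36112792 and chr2:36112819-36114110, rose with all 6 of their probes. A probe of the first went from 4.40, 4.70 and 4.15 to 6.57, 6.52 and 6.25 (log2 fold change 2.03), and one of the second from 5.38, 5.29 and 5.21 to 7.24, 6.82 and 7.12 (1.77). No Sox17 ed/ed array overlapped a Sox17 f/f array at any of these 6 probes, which holds for every called probe. However, a further probe of the second region was not above background on any Sox17 f/f array. It met the rule through Sox17 ed/ed alone, and its rise is a bound, at least 3.50-fold. A further probe of the first region was above background on 5 arrays. With normexp background correction the chromosome 2 probes whose readings are given changed by 0.82 and 0.95. The 3 probes of the forward region chr19:60220577-60238494 rose alike, by 1.72, 1.63 and 1.62, and the first of them read 8.80, 8.83 and 9.01 in Sox17 f/f and 10.28, 10.66 and 10.87 in Sox17 ed/ed uteri. On the reverse strand of chr8:67552315-67561235 the single probe rose from 7.16, 7.31 and 7.26 to 9.06, 9.48 and 9.03, a log2 fold change of 1.95 (SE 0.14, limma adjusted p = 0.000856).

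Among the falls, a forward region of chromosome 17, chr17:8718223-8949898, came first. One probe read 8.58, 7.97 and 7.65 on the Sox17 f/f arrays and 4.72, 4.73 and 4.52 on the Sox17 ed/ed arrays, a log2 fold change of -3.41 (SE 0.24, limma adjusted p = 0.000762). A second went from 8.87, 8.39 and 8.14 to 6.55, 6.31 and 6.47 (-2.02), and the third did not clear background in Sox17 ed/ed uteri. At the second probe every Sox17 ed/ed array was lower than any Sox17 f/f array. The first was named partly because its groups were apart, and the third met the rule through Sox17 f/f alone. Within the same span lies another forward region, chr17:8719950-8783850, whose 5 probes did not act as one. Of these, 2 did not clear background in Sox17 ed/ed uteri, another pair gave log2 fold changes of -0.81 and -0.78, and the last gave -0.23 (limma adjusted p = 0.351). With normexp background correction the change of the first probe of the wider region was -2.04. These intervals overlap on the same strand, so their probes may share a transcript.

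**Figure D3:**
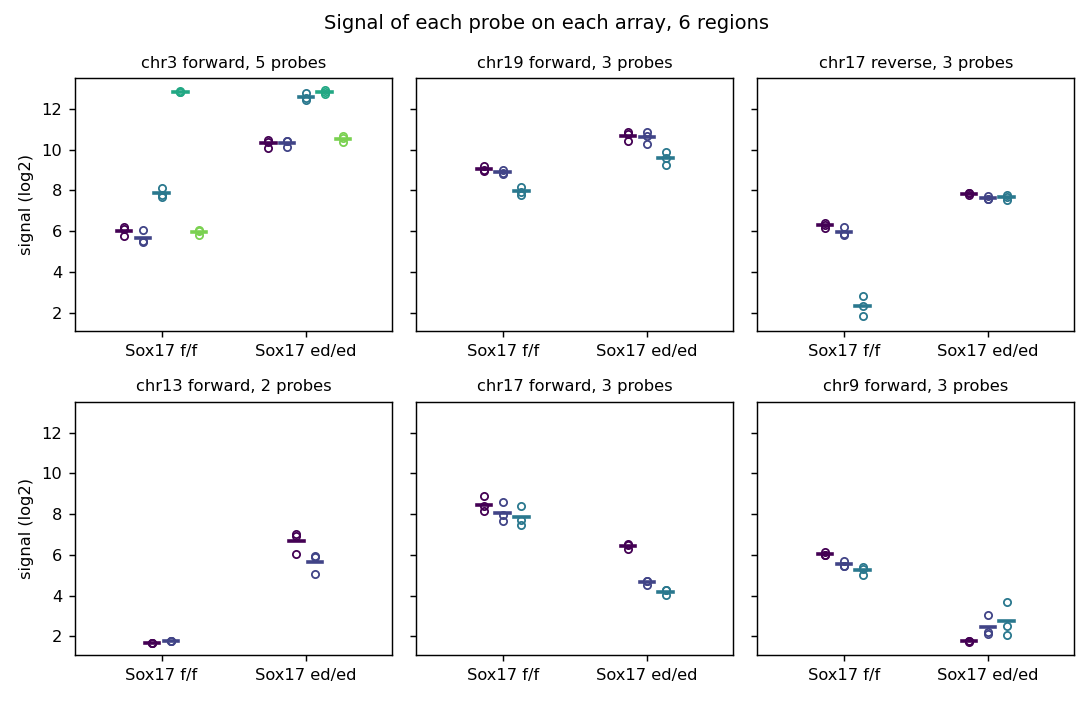
Log2 signal of every tested probe in 6 regions, with 3 arrays of each genotype. Open circles are arrays, bars are group means and each colour is 1 probe. In the chromosome 3 region 4 probes rose by 4.28 to 4.73 and 1 stayed near 12.8, while the probes of the other regions moved together in direction.

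The other large falls were carried by fewer probes. On the reverse strand of chr7:106529142-106529752, 1 probe read 7.50, 7.58 and 8.29 in Sox17 f/f and 6.49, 4.95 and 5.66 in Sox17 ed/ed uteri, for a log2 fold change of -2.09 (SE 0.42, limma adjusted p = 0.0332). The second probe of that region gave 0.01 and did not pass, and without Sox17 ed/ed replicate 3 the first no longer passed either, at -2.07. At chr1:90340543-90359181, reverse, the 3 probes fell, with log2 fold changes of -1.79, -0.81 and -0.63 (limma adjusted p = 0.00189, 0.0527 and 0.0589). The single forward probes of chr9:78372153-78372834 (7.85, 7.37 and 7.73 against 5.79, 5.93 and 5.90) and chr9:78104935-78116974 (7.03, 6.31 and 7.09 against 4.93, 4.98 and 5.29) had log2 fold changes of -1.78 and -1.75. On the reverse strand of chrX:6790023-6896433 2 of 3 probes fell, with log2 fold changes of -1.65 and -1.30. The third read 7.72, 7.18 and 7.20 in Sox17 f/f and 5.41, 7.59 and 5.52 in Sox17 ed/ed uteri, so that Sox17 ed/ed replicate 2 lay among the Sox17 f/f arrays and the other two well below them. With normexp background correction the largest fall of each of these 5 regions was smaller, at -1.35, -0.93, -1.07, -0.78 and -0.70 in the order given.

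For a probe that no array of a genotype measured well above background, the change is a bound. Such bounds depend on the background correction, as given after them. The mean of the bright genotype was divided by a floor for the dim one. On each dim array that floor was either the signal of the probe or the faintest signal that counted as well above background there, whichever was higher. By this measure the third probe of chr17:8718223-8949898 was at least 12.2-fold lower in Sox17 ed/ed uteri, with mean log2 signals of 7.87 ± 0.48 in Sox17 f/f and 4.19 ± 0.15 in Sox17 ed/ed uteri (SD, n = 3 each). The probes of chr17:8719950-8783850 not clear of background in Sox17 ed/ed uteri were at least 6.6-fold and 2.70-fold lower. In the short forward region chr9:81536195-81538236 none of the 3 probes was above background in Sox17 ed/ed uteri, with bounds of at least 4.12-fold, 2.90-fold and 2.31-fold lower signal. The first of them averaged 6.05 on the log2 scale in Sox17 f/f and 1.77 in Sox17 ed/ed uteri.

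In the other direction, a probe on the reverse strand of chr17:8025086-8026227 was at least 16.5-fold higher in Sox17 ed/ed uteri. It read 1.83, 2.80 and 2.34 on the Sox17 f/f arrays, none of them well above background, and 7.76, 7.70 and 7.54 on the Sox17 ed/ed arrays. It met the rule through Sox17 ed/ed alone. The other probes of that region were above background on all 6 arrays and rose by 1.67 and 1.54 (limma adjusted p = 0.00120 and 0.000388). Further along the same chromosome the single forward probe of chr17:8088950-8106700 was at least 11.8-fold higher, with Sox17 ed/ed replicate 2 at 8.31 and the other two near 6.6. Both probes of the forward region chr13:23487906-23488198 did not clear background in Sox17 f/f uteri and were at least 8.23-fold and 4.04-fold higher in Sox17 ed/ed uteri. With normexp background correction, whose offset of 50 lifts dim signals by construction, the fitted log2 fold changes of the leading probe of each region were 1.98, 1.55 and 1.5 for the 3 regions higher in Sox17 ed/ed uteri and -1.72, -1.13 and -1.12 for the 3 lower.

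Several probes measure the same region, and they did not always change together. A called member was present in 311 of the 2953 regions, 134 higher and 177 lower. No region held members called in both directions. A region with more members has more chances to hold a called one, so this count does not compare with the share of probes called. In 75 of the 311 regions the called probe was the only member. Of the 236 with several members, 37 had every member called and 156 had 1 called, and in 62 some other member had a log2 fold change of the opposite sign. Where a region held at least 3 members, which 1066 did, the log2 fold changes of its members spanned a median of 0.37, and the span was over 1 in 105 regions (9.85%). When the members of a region were averaged on each array before the fit, 202 of 2953 regions were called (6.84%, against 10.4% of all features in that fit), 84 higher and 118 lower.

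All members were called in 24 of the regions with at least 3, 11 of them higher and 13 lower. These were picked for having every member called, so the shared direction of their probes is no test, and probes of 1 region share a source of RNA. In some of the 24, such as the reverse region chr1:195332659-195335997, 0 probes were above background on all 6 arrays. Among the higher ones were a reverse region at chr4:88583425-88584070 (3 probes, log2 fold changes 1.22 to 1.32) and reverse regions with 5 probes each at chr15:32167516-32174427 (0.66 to 0.82) and chr19:59498190-59531390 (0.65 to 0.83). Among the lower ones were forward regions at chr17:71183978-71185384 (-1.16 to -1.05) and chr3:145270309-145270779 (-1.01 to -0.89) and the 5 probes of a reverse region at chr7:128341797-128414692 (-0.86 to -0.69). Every probe of these regions was above background on all 6 arrays. With normexp background correction 13 of the 24 regions still had all members called.

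Some called regions lay next to each other on the chromosomes. Tested intervals at most 100 kb apart and called in 1 direction formed 34 runs of at least 2 intervals, 4 of them of at least 3. The run with the most intervals lay on chromosome 12, from position 110842149 to 110988678. This stretch of 147 kb held 10 tested intervals and 38 members. Of these, 24 were lower in Sox17 ed/ed uteri and 0 higher, where 5.32% of all probes tested were lower. A lower member was held by 9 of the 10 intervals. Some of the 24 met the signal rule through Sox17 f/f alone, with no Sox17 ed/ed array clear of background. The filter itself can make such probes differ. Among the 25 members of the stretch above background on all 6 arrays, 18 were lower. Since the stretch was picked for its calls, these counts describe it and are no test of it. Intervals in it overlap and may share transcripts, so the 38 probes are not 38 separate RNAs.

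All 28 forward members had a negative log2 fold change, with a median of -0.78, and 20 were called lower. The 20 include 16 of the 21 forward members above background on all 6 arrays. Over these 28 probes the median log2 signal was 6.86, 6.76 and 6.57 on the Sox17 f/f arrays and 5.87, 6.17 and 5.87 on the Sox17 ed/ed arrays. These medians include probes that met the rule through Sox17 f/f alone, and they are no test, since the stretch was picked for its calls. Of the 10 reverse members, 4 were called lower, the median was -0.48, and 2 had a positive log2 fold change. Only 4 of the 10 were above background on all 6 arrays, and in none of the 3 intervals of the stretch measured on both strands did the difference between strands pass (limma adjusted p = 0.0924, 0.304 and 0.709). On the forward strand of chr12:110909258-110913909 one probe read 7.31, 7.36 and 7.44 in Sox17 f/f and 6.02, 6.16 and 6.23 in Sox17 ed/ed uteri, for a log2 fold change of -1.23 (SE 0.09, limma adjusted p = 0.000767), and both its companions fell (-0.74 and -0.64). All 3 forward probes at the start of the stretch, chr12:110842149-110845695, fell as well (-0.92, -0.78 and -0.77). At chr12:110870903-110891628 a forward probe was at least 3.17-fold lower and not above background in Sox17 ed/ed uteri. In the same interval 2 of 3 reverse probes fell (-0.81 and -0.62) and the third gave -0.04.

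A few probes of the stretch did not follow. A forward probe of chr12:110842154-110883594 read 8.00, 7.97 and 7.83 in Sox17 f/f and 6.95, 9.11 and 7.03 in Sox17 ed/ed uteri: Sox17 ed/ed replicate 2 was the highest of all 6 arrays and the other two Sox17 ed/ed arrays the lowest. Likewise a forward probe of chr12:110896603-110940553 was highest on Sox17 ed/ed replicate 2, at 6.30, where the Sox17 f/f arrays read 6.08, 5.97 and 5.58. At the single probe of chr12:110967974-110969051 the log2 fold change was -0.32 (limma adjusted p = 0.273). With each array left out in turn, 21 to 23 of the 38 probes were called, and with normexp background correction 12. The other settings that tested all 38 gave 23 or 24. When only probes above background on all 6 arrays were fitted, 19 of the 25 tested were called. With normexp the median log2 fold change of the 38 was -0.31, against -0.76.

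**Figure D4:**
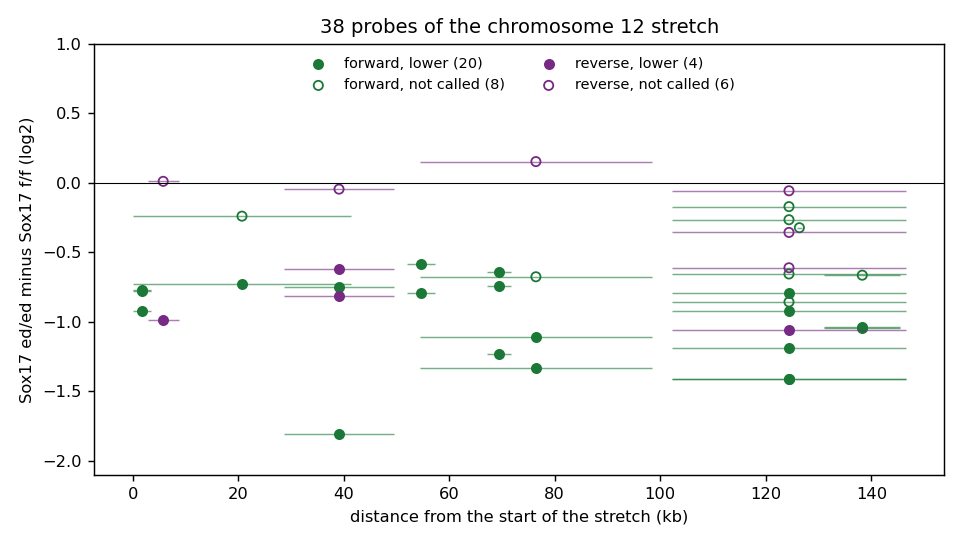
Log2 fold change (Sox17 ed/ed minus Sox17 f/f) of the 38 members of the chromosome 12 stretch against distance from its start in kb. Lines span the interval of each probe and circles mark its middle, since the place of a probe within its interval is not given in the files. Filled circles were called lower: 20 of 28 on the forward strand (green) and 4 of 10 on the reverse strand (purple).

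Accession-named probes gave the long noncoding genes of the same chromosome for comparison of their own values. Meg3, Rian and Mirg are imprinted, maternally expressed transcripts that lie one after the other in a domain dense in microRNAs and small nucleolar RNAs. No value is given for Rian, which was not among the listed long noncoding genes tested. Mirg read 10.11, 10.28 and 10.04 in Sox17 f/f and 9.24, 9.34 and 9.15 in Sox17 ed/ed uteri, for a log2 fold change of -0.90 (SE 0.10, limma adjusted p = 0.00359). The brightest of 3 Meg3 probes read 13.03, 13.05 and 12.98 against 12.64, 12.71 and 12.73, a change of -0.33 (limma adjusted p = 0.0364) that lay below the fold threshold. Neither gene overlapped between genotypes at these probes. The other two Meg3 probes differed from each other, one with -1.33 (SE 0.08, limma adjusted p = 0.000455), which passed, and one with -0.38 (limma adjusted p = 0.0685), which did not. The gene table used for these names is on the GRCm38.p6 assembly and the array positions are on mm9, so the stretch was not placed against these genes.

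The other 3 runs of at least 3 intervals were on chromosomes 1 and 8. They too were picked for their calls in 1 direction, so their counts and shared signs describe them and are no test. Over all probes tested, 4.56% were higher and 5.32% lower. From position 139713316 to 139913366 of chromosome 1, 6 intervals held 21 members, of which 9 were higher. The 16 forward members all had positive log2 fold changes (median 0.51), 8 of them called. At chr1:139822286-139822985 one of them read 9.09, 9.03 and 9.13 in Sox17 f/f and 9.70, 9.67 and 9.78 in Sox17 ed/ed uteri, for a log2 fold change of 0.63 (SE 0.07, limma adjusted p = 0.00466). These were small changes close to the fold threshold, and with normexp background correction 2 of the 21 were called.

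A second stretch of chromosome 1, from position 175653557 to 175717250, held 4 reverse intervals with 16 members, all with negative log2 fold changes between -0.91 and -0.46, and 11 were called lower. In chr1:175654606-175672031 a probe read 7.24, 7.31 and 7.47 in Sox17 f/f and 6.45, 6.58 and 6.47 in Sox17 ed/ed uteri, for a log2 fold change of -0.84 (SE 0.09, limma adjusted p = 0.00378). All 16 kept their sign with each array left out, but without Sox17 f/f replicate 1 the number called was 6. On chromosome 8, from 67542714 to 67561694, the 4 members were all higher. The forward probes there were above background in Sox17 ed/ed uteri alone, met the rule only through that genotype, and were at least 5.29-fold and 3.91-fold higher. The reverse probes rose by 1.95 and 1.62, and only the first of these was above background on all 6 arrays. The median of the 4 was 2.40, and 0.74 with normexp background correction. It includes signals not measured above background, so it is not an estimate of a change.

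Both strands of an interval were measured by members in 545 intervals, which allowed the change on one strand to be tested against the change on the other. In 101 of these a member was called on either strand, on the forward strand alone in 37 and on the reverse strand alone in 54. Members were called on both strands in 10, in the same direction in 8. The difference between the strands passed an adjusted p under 0.05 over all pairs in 2 of the 545 (0.367%), and 73 pairs had an unadjusted p under 0.05. A pair that did not pass is not shown to have changed alike on both strands, with 3 arrays a group.

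In the first of the 2, chr8:73645975-73696275, the forward probe read 7.77, 7.49 and 7.77 in Sox17 f/f and 7.63, 8.06 and 7.61 in Sox17 ed/ed uteri, and the genotypes overlapped. The reverse probe read 5.29, 5.03 and 5.77 against 2.68, 2.95 and 3.23, not well above background in Sox17 ed/ed uteri and at least 2.57-fold lower there. In the second, chr17:8719950-8783850, the reverse probe gave 0.13 and 2 of the 5 forward probes were the ones that did not clear background in Sox17 ed/ed uteri. Both fitted differences, 2.50 and -1.87 on the log2 scale (limma adjusted p = 0.0120 for each), therefore include signals that were not measured above background, and their sizes are not estimates of a change.

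When strands were compared over members above background on all 6 arrays, 0 of 393 pairs passed in limma, with 54 at an unadjusted p under 0.05. The chromosome 8 interval could not be tested that way, and the chromosome 17 interval gave -0.60 forward and 0.13 reverse, a difference of -0.73 (SE 0.14, limma adjusted p = 0.167). With normexp background correction the fitted differences were 0.58 (limma adjusted p = 0.238) and -0.66 (limma adjusted p = 0.0114). Leaving out Sox17 f/f replicate 1, 2 or 3 or Sox17 ed/ed replicate 1 or 2 left 0 pairs past the threshold (63, 63, 66, 72 and 72 pairs with an unadjusted limma p under 0.05), and without Sox17 ed/ed replicate 3 the chromosome 8 pair alone passed.

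**Figure D5:**
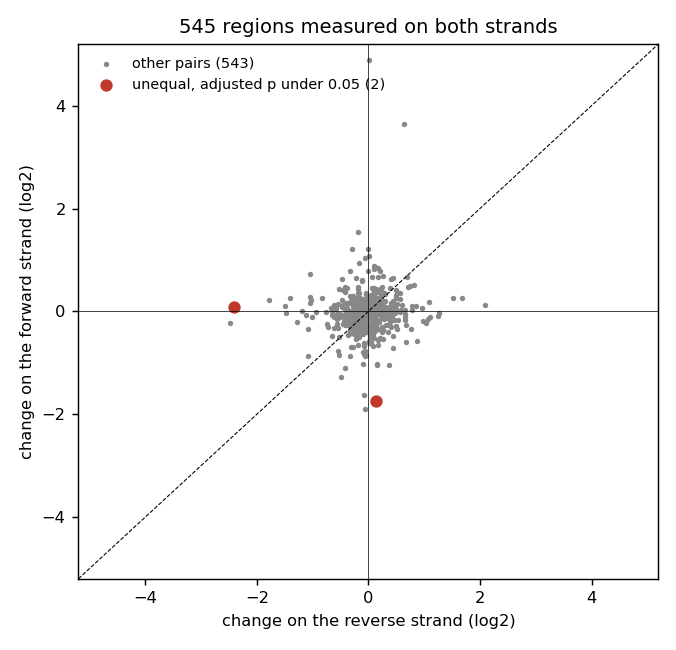
Change on the forward strand against change on the reverse strand, both as log2 fold changes (Sox17 ed/ed minus Sox17 f/f) of the mean of a strand's members, for 545 intervals. The dashed line marks equal change. The 2 red points are the pairs past an adjusted p of 0.05, both of which rest on probes not above background in Sox17 ed/ed uteri, and the point at 3.64 forward and 0.63 reverse is the chromosome 3 interval, whose difference of 3.01 had an adjusted p of 0.0972.

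Of the 8 intervals called in the same direction on both strands, chr15:32167516-32174427 rose by 0.50 forward and 0.75 reverse, as means of 3 and 5 members, and chr8:125031410-125075960 fell by 0.76 and 0.55. In the chr19:59498190-59531390 interval a forward member was lower and the 5 reverse members higher. The means of its strands changed by -0.35 and 0.76, and the adjusted p of their difference was 0.0864.

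By chromosome, the share of members called ran from 2.56% on chromosome 18 (6 of 234) to 10.6% on chromosome 1. Of the 32 called on chromosome 12, 29 were lower, and 24 of these 29 lie in the stretch described above. Chromosomes 15 and 16 had 15 higher with 3 and 2 lower, in 9 and 11 regions, and chromosome 7 had 2 higher and 13 lower in 10 regions. Probes of 1 region count more than once here, so these splits were not tested. Called shares differed little with the length of the interval, 6.85% in the shortest quartile (90 to 4537 bases) and 7.04% in the longest (29597 to 538251 bases), and with the strand, 6.48% forward and 7.0% reverse.

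The probes with the strongest signal did not pass the thresholds. At chr19:5801802-5802597, reverse, the brightest of 3 probes read 18.17, 18.11 and 17.98 in Sox17 f/f and 17.98, 17.94 and 18.02 in Sox17 ed/ed uteri, for a log2 fold change of -0.11 with a 95% interval from -0.30 to 0.09. The other two probes of that region gave -0.17 and -0.03, and at the first of them every Sox17 ed/ed array was below every Sox17 f/f array. The next 3, at chr11:22681800-22707775, chr14:78924115-78938125 and chr7:108209996-108216032, gave 0.05, 0.02 and -0.02. Signals of different probes are not amounts of RNA, so this order carries no comparison between regions.

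A list of 46 well-known long noncoding genes was read through accession-named probes for comparison. Of these, 26 were on the array and 22 were tested, each by its brightest probe. Emx2os and Dlx6os1, antisense to homeobox genes, rose by 1.14 and 2.0 on the log2 scale. Lower were 5: Mir22hg, the host transcript of miR-22 (-1.49), Mirg, Foxd2os (-0.83), and the nuclear transcripts Malat1 (-0.54) and Neat1 (-0.52, limma adjusted p = 0.0721), of which the latter builds paraspeckles. The other 15 did not pass by that probe, among them Meg3, Norad, Tug1 and Hoxa11os (0.44, limma adjusted p = 0.0335, below the fold threshold). The median of the 22 was -0.07, against -0.01 over all probes tested. Over all accession-named probes matched to a gene that the table classes as long noncoding, 26 of 220 were called (11.8%, against 9.88% of all probes), 9 higher and 17 lower.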

How the data were processed

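Total RNA of 6 samples of whole uterus was labelled with Cy3 and hybridised to Agilent one-colour arrays, 1 sample each. The authors deposited scanner intensity values per spot, background-subtracted by Agilent Feature Extraction (version 9.1 per the submitters' processing notes and 11.0.1.1 per the file headers), and a table of processed intensity values used here as an alternative. Control spots were left out, and spots that the software marked as outliers were set to missing (60 members had a missing value). Processed signals were taken to log2, quantile normalized between arrays, and averaged over the spots of a probe. The 32768 probes that met the rule on background (3 or more of 6 arrays) entered 1 fit (R 4.3.3, limma 3.58.1), and p-values were adjusted by Benjamini-Hochberg across them. The thresholds, an unadjusted p under 0.01 and a fold change of at least 1.4, follow the methods of the study. All SE values are on the log2 scale with 3 arrays a group, and intervals are 95%. Strands were compared in a fit of the within-array difference of their mean log2 signals. With 3 arrays against 3 an exact permutation test of a single value cannot go below 0.1, so none is given, and the number of arrays limits the precision.

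Regions named are the 6 largest rises and 6 largest falls among probes above background on all 6 arrays with an adjusted p under 0.05 and groups apart, the 3 largest bounds in each direction, strand pairs past the adjusted threshold, the 4 highest signals and the longest run. Other regions and the other runs were named after their values were seen, from those with every member called or as exceptions. The members, gene lists and tests were chosen with earlier results of these data known. Comparisons with neighbouring genes were not made because the gene table used here is on GRCm38.p6 and the array positions are on mm9. Marker and long noncoding genes were read through the brightest tested accession-named probe of each gene. For the normexp alternative (offset 50) the median spot signal was used, since the mean signal is not among the columns used here. The fit was tested on simulated data: of 200 probes given a log2 change of 1 among 32768, 162 were called, together with 180 unchanged ones.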

Additional observations from a re-analysis of the deposited data

How the results depend on the processing

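The count of 454 called members (199 higher, 255 lower) was 227 with normexp background correction (113 and 114) and 173 at a fold threshold of 2 (64 and 109). With the other settings it ran from 345 (probes above background on all 6 arrays) to 601 (no filter), and from 381 to 524 with each array left out (151 to 212 higher and 209 to 333 lower). The number of probes tested differed with the filter. The share of members called was 6.77% under the main setting (9.88% of all probes) and 3.38% with normexp (7.51%). It was 6.56% above background on all 6 arrays (9.57%) and 3.71% with no filter (6.33%). Members called under the main setting and again numbered 193 with normexp and 311 to 364 with an array left out, and 110 were called in every setting. The number of strand pairs past the threshold, 2, was 6 with a 75th percentile shift, 7 with normexp (the chromosome 8 pair was lost, at an adjusted p of 0.238), 1 with the replicate block (the chromosome 17 pair was lost, at 0.146), 0 to 1 with an array left out and 0 over members above background on all 6 arrays. The 311 regions with a called member became 202 when members were averaged. This alternative and that of strand pairs over all 6 arrays were chosen after seeing the data. No pairing of samples by replicate number was seen, with deviations of same-numbered samples correlated at 0.059, -0.040 and 0.013. With 3 arrays a group these values cannot exclude a pairing. The replicate block gave 466 called members. Of the values of named probes under the alternatives, 464 stayed on the same side of the thresholds, and 6 kept direction but no longer passed. A value that passed in neither fit counts among the 464 whatever its direction. Named probes not above background on all 6 arrays have no value in the setting that requires it. The comparisons with neighbouring genes were not run. The causes of these differences were not tested. With normexp 23 of 30 called probes of named regions changed by less than their value divided by 1.5. So did 12 of the 19 of these above background on all 6 arrays. The normexp offset lifts dim signals by construction, so the sizes given depend on the background correction. Whether signal near background limits the sizes given for dim probes was not tested.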
